A study of Mus musculus with 9 samples.

Results

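The miRNAs described here are the 168 of 876 detected mature mouse miRNAs whose miRBase accession number lies between 4520 and 4700 or between 16979 and 17350. They were chosen by accession number alone, and a miRNA entered when it had at least 1 count in any of 9 libraries. The lower range held 70 of them and the upper range 98, which left 708 other miRNAs. These ranges are taken to hold mostly opposite-strand products that were added later to hairpins already known in the mouse. The deposited tables give accessions without a name, a hairpin or an arm, so this label was not checked, and the miRNAs are called by their accessions.

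A miRNA precursor folds into a hairpin, and cutting by Dicer leaves a short duplex with a strand from each arm. One strand is usually loaded into an Argonaute protein and guides it to matching mRNAs, while the other strand is mostly degraded and is found at a lower level. Which strand is kept can differ between hairpins, tissues and cell states, and miRNAs outside cells are found in serum in vesicles and bound to proteins.

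Small RNA was sequenced from serum of healthy 129/SVj mice of 2 to 9 months, males and females pooled, and the labels give no genotype or treatment beyond the strain in any group. Fragments from the 5′ end of tRNAs take up most reads of such libraries, and the study compared 2 ways to remove them before library preparation. RNA of each of 3 serum pools (A, B and C) was split into an undepleted control, a fraction in which biotinylated DNA probes and streptavidin beads captured the tRNA fragments (beads), and a fraction in which RNase H cut the fragments paired with the probes (RNase H), giving 3 libraries per group. The methods describe 200 µl aliquots of serum pooled from 3 mice, so the spread between A, B and C may be technical only, and p-values measure that spread alone.

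The control libraries held 205185, 330676 and 248696 miRNA counts in pools A, B and C, and the beads libraries 1926545, 1995956 and 1822088. The RNase H libraries held only 2040, 1977 and 1199. A floor of 3 counts is therefore 0.000907% to 0.00146% of the miRNA counts of a control library, 0.000150% to 0.000165% of a beads library and 0.147% to 0.250% of an RNase H library. The control libraries serve both comparisons, which are for that reason not independent of each other.

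The miRNAs of these ranges were a small part of the serum miRNA counts in every library. They took 0.751%, 0.783% and 0.789% of the miRNA counts of the control libraries of pools A, B and C, with Wilson 95% intervals of 0.715% to 0.789%, 0.754% to 0.814% and 0.755% to 0.825%. The beads libraries gave 0.773%, 0.804% and 0.740%, with intervals of 0.761% to 0.786%, 0.791% to 0.816% and 0.727% to 0.752%. The 3 beads intervals exclude one another, so these libraries differed by more than the counting error that the intervals cover. The 2 groups overlapped, with beads above the control in pools A and B and below it in pool C. The mean share was 0.775% ± 0.0206 (SD, n = 3) in the control and 0.772% ± 0.0321 (SD, n = 3) with beads, a difference of -0.00236 percentage points (two-sided exact permutation test, p = 1.0, n = 3 against 3).

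The share hardly moved although the number of counts did. The miRNAs of these ranges had 1541, 2590 and 1963 counts in the control libraries and 14896, 16042 and 13476 with beads. The mean count was 7.29 times the control mean, and the count of all miRNAs was 7.32 times its control mean. Every beads library exceeded every control library in both counts, with p = 0.1 by exact permutation, the lowest value this design can give. Of all annotated counts, tRNA fragments and other small RNAs included, the set took 0.0466% ± 0.00844 in the control and 0.466% ± 0.0982 with beads (SD, n = 3 each). Control and beads were fractions of the same RNA of each pool, so they share the cells that released it. For the level of a miRNA in that bulk serum RNA, the number of cells releasing it and the amount released per cell cannot be told apart.

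In the RNase H libraries the share rested on 11, 14 and 7 counts. It came to 0.539%, 0.708% and 0.584% in pools A, B and C, and the Wilson intervals of 0.301% to 0.963%, 0.422% to 1.19% and 0.283% to 1.20% each include the control share of the same pool. At the control share, 15.3, 15.5 and 9.46 counts would have been drawn, and these values lie inside the exact Poisson intervals of the observed counts, 5.49 to 19.7, 7.65 to 23.5 and 2.81 to 14.4. All 3 RNase H libraries lay below all 3 control libraries, and the mean of 0.610% ± 0.0875 (SD, n = 3) differed from the control mean by -0.164 percentage points (exact permutation p = 0.1, the smallest possible). A difference of this size was not detectable in single libraries at this depth, and without the most abundant miRNA of the set it was -0.0440 percentage points (exact permutation p = 0.7). The intervals and the floors account for counting error alone, because PCR copies could not be told from separate molecules.

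**Figure D1:**
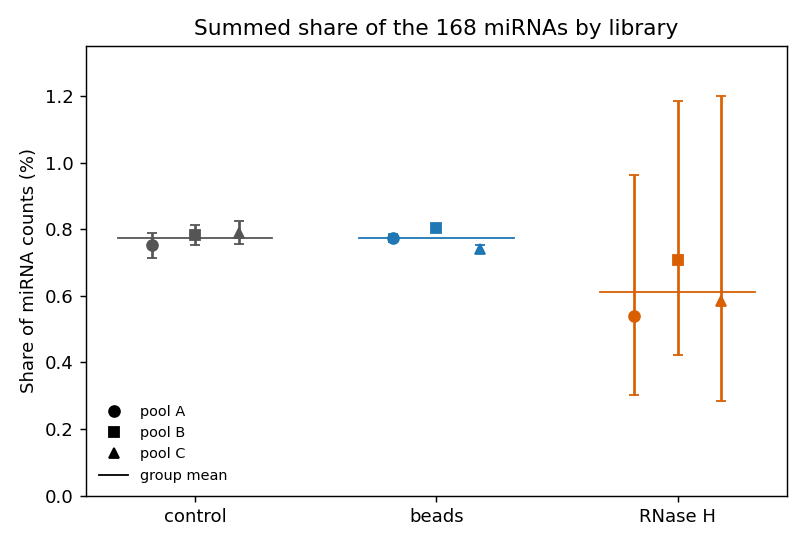
Share of miRNA counts (percent, vertical axis) taken by the 168 miRNAs in each library of the control, beads and RNase H groups. Symbols mark pools A, B and C, vertical bars are Wilson 95% intervals and horizontal lines are group means. The control and beads libraries sit between 0.740% and 0.804%, and the RNase H libraries lie lower with intervals that reach up to 1.20%.

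The lower range carried most of the counts. It took 0.605% ± 0.0227 of the miRNA counts in the control, 0.598% ± 0.0355 with beads and 0.393% ± 0.0547 with RNase H (SD, n = 3 each). The upper range took 0.169% ± 0.00298, 0.175% ± 0.00572 and 0.217% ± 0.107 in the same order. With beads neither range differed beyond the spread (exact permutation p = 0.7 for the lower and 0.3 for the upper range). With RNase H the lower range rested on 9, 8 and 4 counts in pools A, B and C, and the upper range on 2, 6 and 3. The lower range had its 3 libraries below the control (exact permutation p = 0.1). The mean of the upper range was above that of the control (exact permutation p = 0.4). Pool A of the upper range lay under the floor of 3 counts and pool C at it, so no direction is read there.

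A single miRNA, MIMAT0004582, made up 41.3% of the control counts of the set and 40.5% of its beads counts. It had 622, 1079 and 814 counts in control pools A, B and C, 6114, 6731 and 5132 with beads, and 5, 2 and 3 with RNase H. Its level in counts per 1000000 miRNA counts (CPM) was 3189 ± 137 in the control and 3121 ± 282 with beads (SD, n = 3 each), rank 36 among all miRNAs in both groups. The level overlapped between control and beads (edgeR log2 fold change -0.03 ± 0.080 (SE), Benjamini-Hochberg adjusted p = 0.842).

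The counts fell off steeply behind it. In the control the leading 4 miRNAs held 60.2% of the counts of the set and the leading 10 held 77.7%. It took 21 miRNAs to reach 90% of the control counts and 24 with beads. Over the 3 beads libraries the median summed count of the miRNAs seen there was 16 for the set and 14 for the others, and 8 of the set against 107 of the others reached 1000. In the control the medians were 4 and 9, and with RNase H 1 and 5, so the set had the lower median in these 2 groups.

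The next 3 in the control were MIMAT0016988, MIMAT0004536 and MIMAT0004521. MIMAT0016988, of the upper range, had 120, 200 and 146 control counts and 1160, 1286 and 1166 beads counts, with levels of 592 ± 11.0 and 629 ± 23.2 CPM (SD, n = 3 each). MIMAT0004536 had 100, 168 and 108 control counts and 899, 1061 and 861 beads counts, at 477 ± 38.1 and 490.2 ± 35.9 CPM. MIMAT0004521 had 61, 127 and 126 control counts and 606, 774 and 632 beads counts, at 396 ± 105 and 349.7 ± 36.7 CPM. None of these 3 passed the edgeR test with beads, with log2 fold changes of 0.09 ± 0.11, 0.04 ± 0.12 and -0.18 ± 0.13 (SE) and adjusted p of 0.640, 0.841 and 0.339.

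Of the other 6 among the leading 10 in the control, MIMAT0004636 and MIMAT0017169 were lower with beads and are described with the called miRNAs. MIMAT0004651 had 63, 65 and 61 control counts and 485, 428 and 377 beads counts, or 249.6 ± 55.4 and 224 ± 24.0 CPM. MIMAT0004626 had 44, 90 and 57 against 432, 373 and 311, or 239 ± 30.0 and 194 ± 27.5 CPM. The levels of the 2 groups overlapped for both, and neither was called. MIMAT0017018 had 29, 74 and 50 against 328, 386 and 341, or 189 ± 42.6 and 184 ± 12.0 CPM. MIMAT0004532 had 34, 46 and 37 against 255, 262 and 220, or 151 ± 13.5 and 128 ± 6.42 CPM, and these 2 miRNAs did not pass the test either, although all 3 beads libraries of MIMAT0004532 lay below the control.

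Single miRNAs of the set were tested between beads and control relative to the other miRNAs, so a log2 fold change of 0 means an unchanged position within the miRNA counts. In this fit 82 of 307 tested miRNAs (26.7%) had an adjusted p under 0.05, with 51 (16.6%) higher with beads and 31 (10.1%) lower. Of the 168, 53 passed the filter on low counts (31.5%, against 35.9% of the others), and 13 of these 53 had fewer than 10 summed control counts. With beads 10 of the 53 were called (18.9%), 7 higher and 3 lower. An unadjusted edgeR p under 0.05 was found for 16 of the 53, beside 113 of all 307. The filter asks for about 9.29 CPM in 3 libraries, and 6 of the 53 reached this level in the beads libraries only and 1 in the control libraries only. These 7 could hardly be tested without differing, and they hold 4 of the 7 higher and 1 of the 3 lower calls. Among the 46 that reached this level in at least 1 library of each group, 5 were called, 3 higher and 2 lower. The same count over all miRNAs was not made. The 5 called reached it in all 3 libraries of both groups, which some of the others did not. The median log2 fold change of the 53 was 0.03, beside 0.04 over all 307. Leaving out pool A or pool B left 6 called miRNAs each (10.5% of those tested, beside 23.0% and 20.9% of all tested miRNAs). Leaving out pool C left 8 (14.8%, beside 23.9%). When libraries were scaled to all annotated counts instead, the median over all tested miRNAs was 3.37 and all 62 tested miRNAs of the set were called higher, so that directions below hold within the miRNA counts only.

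**Figure D2:**
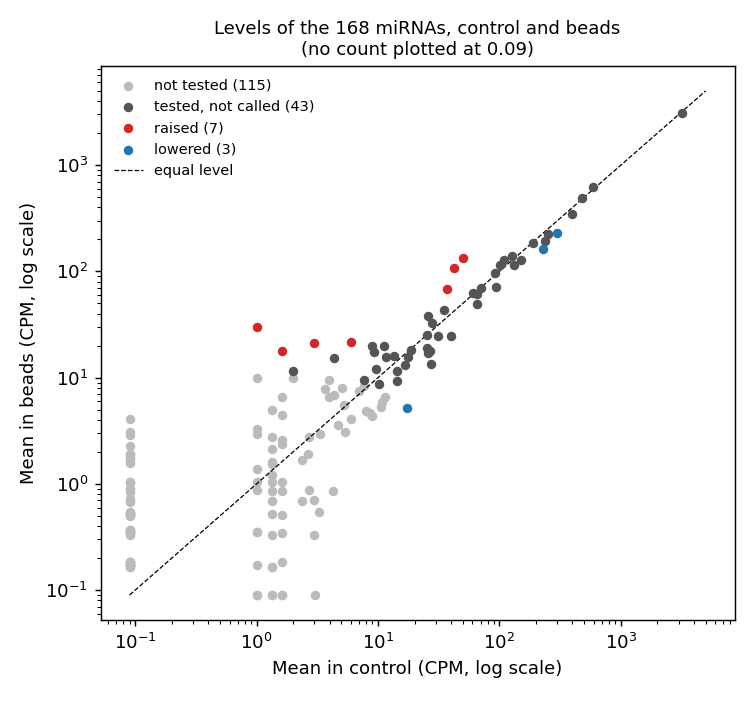
Mean level of each of the 168 miRNAs in the control (horizontal axis) and with beads (vertical axis), in CPM on log scales, with no count drawn at 0.09 and the dashed line marking equal levels. Most tested miRNAs lie near the line, with 7 called higher in red and 3 called lower in blue, directions that hold within the miRNA counts and turn to all higher when scaled to all annotated counts, and 115 were not tested.

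The 4 called miRNAs that passed the filter through the beads libraries only were at or near 0 counts in the control, and their values are given as a description without a p. MIMAT0004631 had 0, 1 and 0 control counts in pools A, B and C and 62, 36 and 73 with beads. The ratio of its shares of miRNA counts was 23.4 with a counting interval of 4.14 to 928. For these 4 the filter alone sets every beads library above every control library, so neither this gap nor the intervals are a test.

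MIMAT0017332 had 1, 0 and 0 control counts and 31, 33 and 37 with beads. Its share was 13.8 times that of the control (counting interval 2.42 to 550.2). MIMAT0004545 had 1, 0 and 1 control counts and 51, 31 and 40 with beads, a share ratio of 8.33 (2.26 to 69.6). The wide intervals come from the control totals of 1 and 2 counts. MIMAT0017052 had 1, 3 and 1 control counts and 64, 36 and 25 with beads, a share ratio of 3.41 (1.42 to 10.7). It was no longer called without pool A, without pool B or with DESeq2.

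The other 3 higher miRNAs passed the filter in both groups. MIMAT0004661 had 13, 13 and 12 control counts and 297, 224 and 247 with beads, and its level rose from 50.3 ± 12.2 to 134 ± 21.0 CPM (SD, n = 3 each). The edgeR test gave a log2 fold change of 1.47 ± 0.24 (SE) with an adjusted p of 9.24e-09, the smallest adjusted p of the set. It was above the control in all 3 pools and in all 9 alternative fits. In 1 of these fits, on all annotated counts, every tested miRNA was above the control.

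MIMAT0017056 had 7, 17 and 10 control counts and 203, 170 and 247 with beads, and rose from 41.9 ± 8.77 to 109 ± 25.4 CPM (log2 fold change 1.34 ± 0.25, edgeR adjusted p = 1.11e-06). MIMAT0004656 had 6, 14 and 10 control counts and 129, 131 and 131 with beads, and rose from 37.3 ± 7.03 to 68.2 ± 3.30 CPM (log2 fold change 0.84 ± 0.28, edgeR adjusted p = 0.0124). The libraries of control and beads did not overlap for either miRNA. The call of MIMAT0004656 was lost without pool A, without pool C and with DESeq2, where its adjusted p reached up to 0.108.

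Of the 3 lower miRNAs, 2 passed the filter in both groups. MIMAT0017169 had 50, 77 and 53 control counts and 289, 355 and 300 with beads, and fell from 230.0 ± 15.5 to 164 ± 13.9 CPM (log2 fold change -0.48 ± 0.16, edgeR adjusted p = 0.0125). MIMAT0004636 had 57, 111 and 69 control counts and 436, 461 and 411 with beads, and fell from 297 ± 33.5 to 228 ± 2.93 CPM (log2 fold change -0.39 ± 0.15, edgeR adjusted p = 0.0281). MIMAT0004629, the miRNA that passed the filter through the control libraries only, had 2, 10 and 3 control counts and 9, 11 and 10 with beads, and stood at 17.3 ± 11.2 and 5.22 ± 0.478 CPM.

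All 3 were lower in every pool, and all 3 were above the control in raw counts and when scaled to all annotated counts. All 3 calls were lost without pool B and without the filter on low counts. MIMAT0017169 and MIMAT0004636 were also no longer called without pool A, and MIMAT0004636 not without pool C.

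**Figure D3:**
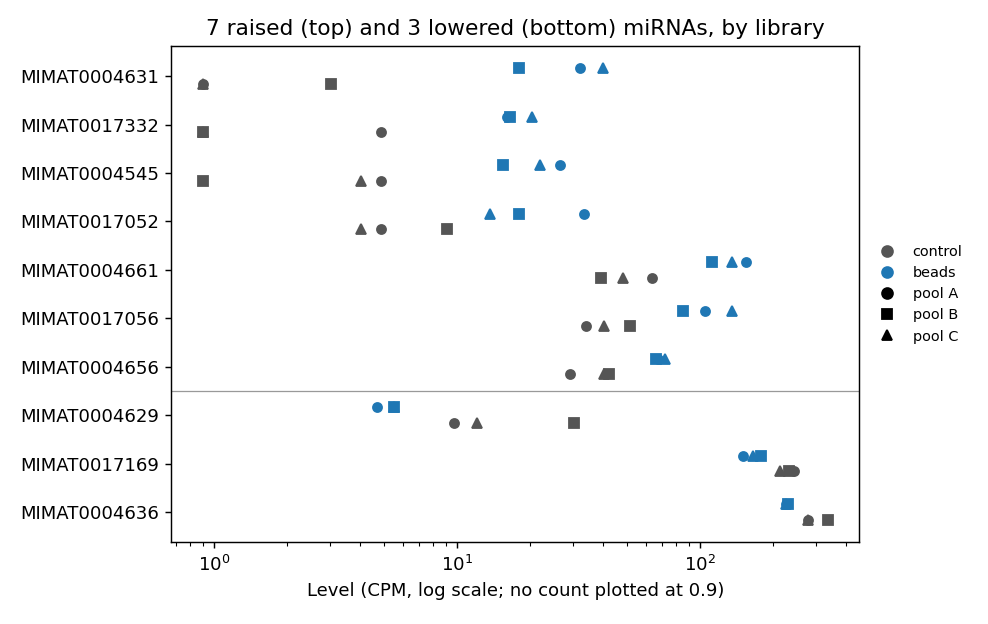
Level of the 10 called miRNAs in each control and beads library, in CPM on a log scale, with symbols for pools A, B and C and no count drawn at 0.9. The control and beads libraries of the 7 higher miRNAs (top) do not overlap, and the 3 lower miRNAs (bottom, higher when scaled to all annotated counts) have their beads libraries to the left. For the 4 higher miRNAs that passed the low-count filter through the beads libraries only, and the 1 lower miRNA that passed through the control libraries only, the filter itself sets this separation.

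More of the miRNAs were detected after bead capture. Of the 168, 78, 84 and 85 had at least 1 count in the control libraries of pools A, B and C, and 134, 129 and 132 had one with beads. The groups did not overlap, with means of 82.3 ± 3.79 and 131.7 ± 2.52 (SD, n = 3 each, exact permutation p = 0.1, the smallest possible). The gain was from 48.0 to 64.7 miRNAs in the lower range and from 34.3 to 67.0 in the upper range. The other miRNAs went from 342.3 to 533.3, or 1.56 times, beside 1.60 times for the set. The set made up 19.4% ± 0.522 of the detected miRNAs in the control and 19.8% ± 0.620 with beads (exact permutation p = 0.5, n = 3 against 3).

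Most of this gain went with the larger number of miRNA counts. When each library was reduced to the 205185 miRNA counts of the smallest control library, 77.1 ± 2.80 of the miRNAs were expected in the control and 81.4 ± 0.697 with beads (SD, n = 3 each). The difference of 4.32 miRNAs again had every beads library above every control library (exact permutation p = 0.1). The same held for the other miRNAs, at 325.5 and 338.2, and the set made up 19.1% and 19.4% of the miRNAs expected at this depth (exact permutation p = 0.6). At an equal sum of all annotated counts, 2796718 in each library, 72.0 were expected in the control and 128.7 with beads. Annotated counts are not all mapped reads, as stated above. With a minimum of 4 counts the means were 39.7 and 89.7, or 2.26 times, beside 1.65 times for the other miRNAs, and the difference between these ratios was not tested.

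**Figure D4:**
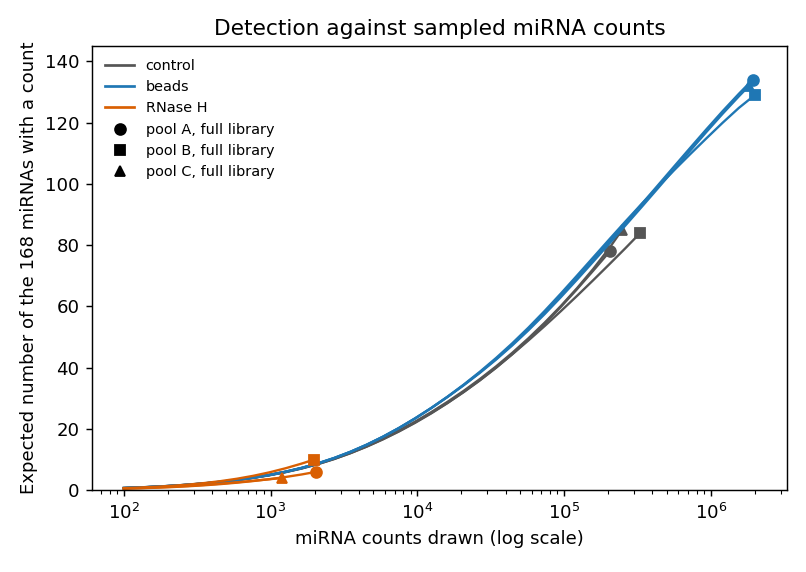
Expected number of the 168 miRNAs with at least 1 count (vertical axis) against the number of miRNA counts drawn from a library (horizontal axis, log scale), one line per library coloured by group and ending in a symbol for pool A, B or C at its full depth. The control and beads lines nearly coincide up to the control depth, where 77.1 and 81.4 miRNAs are expected, and the RNase H lines end at 10 or fewer.

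Over the 3 libraries of a group, 119 of the 168 were seen in the control (70.8%), 161 with beads (95.8%) and 16 with RNase H (9.52%). The shares of the other miRNAs were 64.0%, 95.5% and 19.5%. Both sets hold only miRNAs with a count in at least 1 library, and the beads libraries had the most miRNA counts. The high beads percentages are therefore largely set by this entry rule and are a description. The control and beads groups alone shared 96 of the 168 (57.1%, beside 40.4% of the other miRNAs). All 3 groups shared 16 (9.52%, beside 19.2%), and 7 were seen in the control only (4.17%, beside 4.38%). Of these 7, 6 had a single count and 1 had 3. At their control share they would have had 7.32 to 22.0 counts in the beads libraries together, where they had 0. In every library of the group, 54 of the 168 were seen in the control (32.1%), 104 with beads (61.9%) and 1 with RNase H (0.595%). For the other miRNAs these shares were 36.6%, 57.9% and 9.89%.

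A further 49 (29.2%, beside 35.7% of the other miRNAs) were seen with beads only, 12 of them in all 3 beads libraries, 13 in 2 and 24 in 1. Their median summed count was 3 and the highest was 24. At the same share of miRNA counts, the control libraries together would have held a median of 0.410 counts of each, with over 1 count for 10 of the 49 and over 3 counts for 1. Both lists were chosen for their absence from a group, so these values are a description.

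The 5 most abundant of these 49 were MIMAT0017179, MIMAT0004662, MIMAT0017003, MIMAT0016999 and MIMAT0017073. MIMAT0017179 had 3, 15 and 6 counts in beads pools A, B and C, and MIMAT0004662 had 3, 11 and 4. MIMAT0017003 had 5, 1 and 10, MIMAT0016999 had 2, 5 and 6, and MIMAT0017073 had 6, 2 and 3. All 5 were thus found in every beads library and in no control or RNase H library, and no fold is given for them.

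With RNase H, 6, 10 and 4 of the 168 were detected in pools A, B and C, a mean of 6.67 ± 3.06 against 82.3 ± 3.79 in the control (SD, n = 3 each, exact permutation p = 0.1, the smallest possible). At 1199 miRNA counts per library, 5.01 ± 1.61 were expected with RNase H and 5.72 ± 0.0609 in the control, and the groups overlapped (exact permutation p = 0.4). The 16 miRNAs seen in any RNase H library had 32 counts in all, 10 of them a single one and 1 more than 3. The set made up 6.10% ± 2.47 of the detected miRNAs with RNase H, and at 1199 miRNA counts 5.24% against 6.37% in the control (exact permutation p = 0.4).

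In the edgeR comparison of RNase H with the control, 16 of 138 tested miRNAs (11.6%) had an adjusted p under 0.05. DESeq2 called 2 of the set (1.68% of its miRNAs in that fit, beside 4.70% of all miRNAs). DESeq2 gave no adjusted p to 85 of the 119 miRNAs of the set in that fit and to 335 of all 574. These could not be called but are counted in both shares, which are therefore not comparable with the edgeR shares. Of the 168, 14 were tested with edgeR and 0 were called. Of these 14, 1 had an unadjusted p under 0.05, beside 33 of all 138 tested miRNAs. That 1 was MIMAT0004582, the leading miRNA of the set, whose 5, 2 and 3 counts gave 1988 ± 846 CPM against 3189 ± 137 in the control (log2 fold change -0.85 ± 0.38, edgeR adjusted p = 0.181). Of the 14, 4 passed the filter through the control libraries alone and had 0 counts in all 3 RNase H libraries.

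The 2 miRNAs that DESeq2 called rested on counts from a single library. MIMAT0017057 had 0, 3 and 0 counts with RNase H, against 1, 0 and 0 in the control and 1, 2 and 0 with beads. MIMAT0017000 had 0, 0 and 2 counts with RNase H, against 6, 12 and 3 in the control and 28, 41 and 29 with beads. With MIMAT0004582, MIMAT0004521 (2, 1 and 0 counts) and MIMAT0016988 (0, 1 and 1 counts), these 2 had the highest mean shares in the RNase H libraries.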

How the data were processed

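Adapters were removed with cutadapt 1.8.1, reads under 15 bases or of low quality were discarded (FASTX-Toolkit 0.0.14), and reads were mapped to GRCm38 without mismatches with Bowtie 1.1.2, per the study's methods and the submitters' processing notes. The authors deposited raw counts, not normalized, per mature miRNA (miRBase 20) with at least 1 read and per distinct read of other small RNAs, in 2 files per library. A miRNA not listed was set to 0. Reads of near-identical miRNAs may be split between them, and a mismatch-free search leaves out edited or tailed forms.

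Shares and detection were compared with two-sided exact permutation tests (SciPy 1.17.1, Python 3.11.15) whose smallest possible p is 0.1. Equal depth was computed by hypergeometric rarefaction. Counts were tested with the edgeR 4.0.16 quasi-likelihood test (R 4.3.3, TMM, filterByExpr, Benjamini-Hochberg adjustment over all tested miRNAs), fitted on all miRNAs of the 2 groups compared and checked on simulated data. The SE given with an edgeR log2 fold change was derived from the test, as the absolute change divided by the square root of its F statistic. Ratios for low control totals have exact conditional 95% intervals. Alternatives were the pool as replicate block, RLE factors, DESeq2 1.42.0, no filter, all annotated counts as library size, a joint fit and leaving out each pool. The pools pair the libraries by their labels. Deviations of same-pool libraries correlated at 0.163, 0.0631 and 0.0230 between beads and control (A, B, C) and at -0.0921, 0.00846 and 0.0625 between RNase H and control.

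Named miRNAs were the 10 most abundant in the control, called miRNAs moving alike in all 3 pools, the 5 most abundant with RNase H and the 5 most abundant seen with beads only. MIMAT0004669 in the closing section was added after its values were seen. Members and lists were chosen with earlier results of these data known. Mature sequences, hairpin partners and blood-cell and liver marker miRNAs, which need names, were not analysed here.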

Additional observations from a re-analysis of the deposited data

How the results depend on the processing

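Relative to all annotated counts, the share was 0.420 percentage points higher with beads and changed by -0.0315 with RNase H. The RNase H difference was -0.0440 without MIMAT0004582. It was 0.0481 in the upper range alone, which rested on 2, 6 and 3 RNase H counts in pools A, B and C. The detection gain with beads was 4.32 miRNAs at equal miRNA counts, 56.7 at equal annotated counts and 46.0 to 51.5 when a pool was left out. With RNase H the detection difference was -0.709 and -5.38 at these equal depths and -39.3 with a minimum of 4 counts, and the share of detected miRNAs differed by -1.13 percentage points at equal miRNA counts.

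With beads 10 miRNAs of the set were called with the pool as replicate block, and these were the same 10, 11 with RLE factors (MIMAT0004669 added), 8 with DESeq2, 7 without the filter, 62 with all annotated counts, 5 in the joint fit, where the other 5 were not tested, and 6 to 8 without a pool. Before the pools, these were in order 18.9%, 20.8%, 4.76%, 4.17%, 100% and 20.8% of the set's miRNAs in each fit. Of all miRNAs in each fit, 29.6%, 30.3%, 9.49%, 8.57%, 100% and 32.1% were called. The DESeq2 shares include 87 of 168 miRNAs of the set, and 458 of all 875, that got no adjusted p and could not be called. Without pool A, B or C the shares were 10.5%, 10.5% and 14.8% of the set, beside 23.0%, 20.9% and 23.9% of all miRNAs. Over all miRNAs the block moved the calls from 82 to 91 with beads and from 16 to 12 with RNase H. With RNase H, DESeq2 called 2, the fit without the filter 1 and that on all annotated counts 2 (MIMAT0004582 and MIMAT0004636, lower), and 0 were called in the other alternatives. Those calls were 1.68%, 0.840% and 12.5% of the set's miRNAs in each fit, beside 4.70%, 2.96% and 35.7% of all miRNAs. The DESeq2 shares again include miRNAs without an adjusted p. MIMAT0004661 and MIMAT0017056 stayed called with beads in all 9 alternatives. The fit on all annotated counts, 1 of these 9, called all 332 tested miRNAs higher and so adds no support. MIMAT0004631, MIMAT0004545 and MIMAT0017332 stayed called in the 8 alternatives that tested them. These last miRNAs passed the filter through the beads libraries only, so their repeated calls add no support. Over both comparisons, 211 alternative values for the named miRNAs kept direction and side of the threshold. With the direction kept, 15 lost a call and 4 gained one. A further 25 changed sign and were counted there whether or not their call changed.

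With all annotated counts as library size, log2 fold changes with beads turned positive for MIMAT0004582 (3.30), MIMAT0004521 (3.13), MIMAT0004636 (2.92), MIMAT0004651 (3.20), MIMAT0004626 (3.00), MIMAT0017169 (2.85), MIMAT0017018 (3.24), MIMAT0004532 (3.10), MIMAT0004629 (1.43) and MIMAT0017000 (2.67). Changes of sign in uncalled values were as follows. The beads difference in share, -0.00236, was 0.00448 without MIMAT0004582, 0.00549 in the upper range and -0.0146 to 0.0213 when a pool was left out. With beads MIMAT0004582 was at 0.012 without the filter and -0.062 to 0.057 when a pool was left out, MIMAT0004521 at -0.29 to 0.019 and MIMAT0017018 at -0.14 to 0.057, and MIMAT0004536 was at -0.0067 with RLE factors. With RNase H the ranges when a pool was left out were -1.50 to 0.089 for MIMAT0016988, -8.72 to 0.42 for MIMAT0004536, -0.47 to 0.86 for MIMAT0004521, -7.98 to 0.54 for MIMAT0004651, -8.21 to 0.21 for MIMAT0004626 and -7.96 to 0.57 for MIMAT0017018. The values near -8 are fits to 0 RNase H counts and are no folds. MIMAT0004521 was at -1.21 with all annotated counts, and MIMAT0017018 at 0.092 with RLE factors and 0.26 with DESeq2. The exact sign-exchange test over 3 pools, used for shares and detection with the pool as block, has a smallest p of 0.25. The RNase H libraries limit every comparison that uses them by their 1199 to 2040 miRNA counts. The planned share of both strands of a hairpin was not run, for lack of names in the sources used here.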
